A study of Homo sapiens with 6 samples.

Results

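The interleukin-1 family genes followed here are 10 genes, picked by symbol from the 57316 gene names of the count files. They are the cytokine genes IL1A, IL1B, IL18 and IL33, the inhibitor genes IL1RN and IL18BP, the receptor genes IL1R1, IL1RAP and IL1R2, and CASP1, the gene of a processing enzyme. All 10 were found in the files by name. The rule names genes and uses no measured value, though it was set with earlier results of these data known. Of these, 9 passed the filter on low counts that precedes the test, and IL33 did not.

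RNA was sequenced from THP-1, an established line grown from a human acute monocytic leukaemia, whose cells become adherent and macrophage-like under the phorbol ester PMA. The 3 CXCL10 libraries come from cells given PMA at 100 ng/ml for 48 h and then recombinant human CXCL10 at 100 ng/ml for 24 h. The 3 control libraries come from cells with the same PMA exposure that were then kept for 24 h with a control solution, so both groups are PMA-differentiated cells of 1 line. CXCL10 is an interferon-inducible chemokine that signals through the receptor CXCR3. Both groups carry the replicate numbers 1, 3 and 4. Whether these were separate cultures is not stated, and if not, the p-values below reflect technical spread only.

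Interleukin-1 beta and interleukin-18 are made as inactive precursors that lack a signal peptide. Caspase-1, activated on inflammasomes, cuts both into their active forms, while interleukin-1 alpha is active as a precursor and IL-33 is released from the nuclei of damaged cells. Both interleukin-1 forms signal through IL1R1 paired with the co-receptor IL1RAP. IL1RN encodes a receptor antagonist that occupies IL1R1 without signalling, IL1R2 encodes a decoy receptor that lacks the signalling domain, and IL18BP encodes a soluble protein that captures interleukin-18. Macrophages are a main source of interleukin-1 beta, and the balance between the agonists and these inhibitors sets how far the signal spreads.

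Reads counted in genes came to 34.8 to 41.0 M per library, with both mates of a pair counted. Control replicate 4 stood apart from the other 5 libraries: its mean correlation with them on log2 CPM over the tested genes was 0.974, against 0.984 to 0.986 for the others, and it had reads in 21546 genes, against 23631 to 24807. What part this library's difference plays in the values below was not tested. Of 12 macrophage and monocyte markers 10 averaged at least 1 CPM. The colony-stimulating factor receptor gene CSF1R stood at 1543 ± 72.8 CPM with CXCL10 and 1496 ± 47.3 CPM in controls (SD, n = 3 each). Of the 11 tested, 3 were higher (ITGAM, PTPRC and LYZ) and 1 lower (TYROBP) at an unadjusted p under 0.05 by edgeR. Over all genes 2.5% were higher and 4.65% lower at that p. None of the 11 passed after adjustment with the filter on low counts. LYZ was called higher and TYROBP lower with CXCL10 by edgeR when no filter on low counts was used (adjusted p = 0.00965 and 0.0308), and neither with the filter. With the filter, the log2 fold change of TYROBP was -0.56 ± 0.20 (SE), and -0.25 without control replicate 4. That of LYZ was 0.85 ± 0.20 (SE), and 0.64 without control replicate 4. Of the exon length of LYZ 34% lies opposite another annotated gene, where unstranded counting credits reads to neither. CD68 had 0 to 5 reads per library, and 81.6% of its exon length lies under another annotated gene on the same strand, so its reads could not be assigned. Markers of other cell types were summed per library. The 6 epithelial markers came to 0.162 to 0.62 CPM with CXCL10 and 0.179 to 0.529 CPM in controls, with EPCAM and KRT5 at 0 reads in every library. The 6 B cell markers came to 3.18 to 3.67 CPM with CXCL10 and 3.31 to 4.31 CPM in controls, with MS4A1 at 0, and the 6 neutrophil markers to 13.5 to 16.8 CPM and, in controls, 13.7 to 18.1 CPM, with FCGR3B and CEACAM8 at 0. The 8 T and NK cell markers came to 379 to 448 CPM with CXCL10 and 432 to 454 CPM in controls. Most of that came from TRAC and GNLY, while CD3D, CD3E, CD3G and CD8A had at most 10 reads in any library. The 8 fibroblast and endothelial markers came to 258 to 339 CPM with CXCL10 and 266 to 357 CPM in controls. Most of that came from PECAM1, while COL1A2, COL3A1, CDH5 and KDR had at most 10 reads in any library. What part the RNA of other cells plays in the values below was not tested.

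The stretches before the transcription starts of IL1A, IL1B and IL1R2 are shown because these 3 genes have the lowest p-values of the family in the comparison below. Each is the 250 bases before a RefSeq start on GRCh38.p14, read 5′ to 3′ on the gene's own strand, and where RefSeq has several starts the one nearest the gene's 5′ end in the count files was taken. Capitals mark every match, on either strand, to TATAAA (the box that binds TBP), TTGCNNAA (C/EBP type), TGANTCA (AP-1 type) or GAGGAA (PU.1 type), and no matches overlap in these windows.
IL1A (chr2:112784494-112784743, minus strand): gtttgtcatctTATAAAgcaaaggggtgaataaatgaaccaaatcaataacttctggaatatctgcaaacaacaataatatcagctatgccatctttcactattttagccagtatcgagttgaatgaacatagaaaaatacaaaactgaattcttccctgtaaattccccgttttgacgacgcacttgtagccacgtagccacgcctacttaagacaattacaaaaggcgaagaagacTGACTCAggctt
IL1B (chr2:112836780-112837029, minus strand): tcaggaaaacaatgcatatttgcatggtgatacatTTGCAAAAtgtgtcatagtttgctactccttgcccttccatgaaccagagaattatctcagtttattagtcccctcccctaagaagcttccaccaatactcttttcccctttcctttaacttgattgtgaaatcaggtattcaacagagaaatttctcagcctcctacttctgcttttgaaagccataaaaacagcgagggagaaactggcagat
IL1R2 (chr2:101991710-101991959, plus strand): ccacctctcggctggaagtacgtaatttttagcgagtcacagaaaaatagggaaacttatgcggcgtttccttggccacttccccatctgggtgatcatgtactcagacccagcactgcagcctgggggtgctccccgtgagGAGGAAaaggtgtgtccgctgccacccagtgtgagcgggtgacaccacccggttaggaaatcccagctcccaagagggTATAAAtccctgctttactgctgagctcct

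No motif matched in all 3 stretches, and TATAAA matched in both IL1A and IL1R2. IL1B has the C/EBP type letters 215 bases before its start, which 9.05% of all 35116 RefSeq promoter windows of this length also hold. IL1A has the AP-1 type letters 12 bases before its start (6.57% of all windows) and TATAAA 239 bases before it (10.7%). IL1R2 has TATAAA 30 bases before its start and the PU.1 type letters 108 bases before it (23.6%). An NF-kB type motif with T fixed at both positions before its closing letters was also searched. Looser sites of this type, with C at those positions, were not searched for and may be present. The narrow motif has no match in these 3, against 5.67% of all windows. Such matches are descriptions of the letters only. The count files place the 5′ ends of IL1A and IL1B 97 and 124 bases further upstream than these RefSeq starts, and that of IL1R2 at the same base.

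Of the 23 genes of the interleukin-1 ligand and receptor families that were looked up, 15 lie on chromosome 2 in a pair of clusters (hg38, coordinates from the count files). The ligand cluster runs over 360 kb from IL1A at 112773915 to IL1RN ending at 113134016 and holds 9 family genes, of which IL1B and IL1RN averaged at least 1 CPM. IL1A (112773915 to 112784590) lies 45.2 kb from IL1B (112829751 to 112836903) on the same strand. Per length the IL1B transcript was 553 to 1665 times as abundant, depending on the library. The receptor cluster runs over 461 kb from IL1R2 at 101991960 to IL18RAP ending at 102452565 and holds 6 family genes, of which IL1R2, IL1R1 and IL18R1 averaged at least 1 CPM. The neighbouring ligand genes IL37, IL36A, IL36G and IL36RN had at most 16 reads in any library, and IL1F10 had 0 in all 6. A count of 0 allows up to 0.146 to 0.173 CPM per library, here on totals without TMM scaling. The limit used is 3 fragments or 6 reads and covers counting error only.

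Per length, as TPM over all 6 libraries, IL1B led the family at 946 ± 183 TPM and ranked between 101 and 173 among all gene names. IL1RN followed at 231 ± 43.5 TPM (SD, n = 6). CASP1 (27.6 ± 5.39 TPM), IL18 (16.6 ± 2.58 TPM) and IL18BP (10.4 ± 1.68 TPM) formed the middle of the order, and each was above the next in 6 of 6 libraries. The receptor genes were lower, with IL1R2 at 5.16 ± 0.928 TPM, IL1R1 at 3.67 ± 0.779 TPM and IL1RAP at 2.12 ± 0.498 TPM. IL1A (1.18 ± 0.548 TPM) and IL33 (0.195 ± 0.098 TPM) came last. Neighbours whose ranges over the libraries overlapped were IL1R2 with IL1R1 and IL1RAP with IL1A. In both of these pairs the higher gene led in 5 of 6 libraries.

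**Figure D1:**
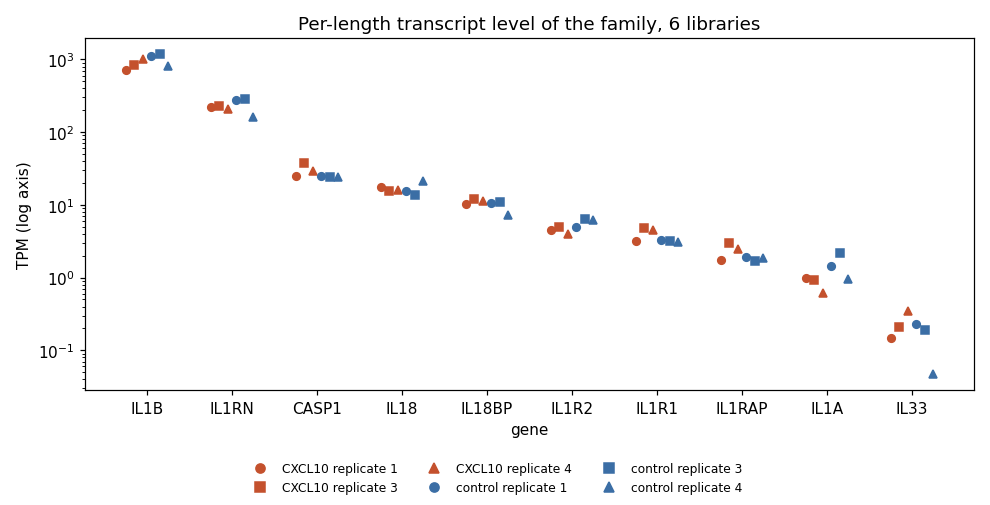
Per-length level in TPM (log axis) of the 10 interleukin-1 family genes in order of their mean, with each point 1 library, CXCL10 libraries left of controls. IL1B and IL1RN stand above all other members in every library, and IL33 lies below 0.4 TPM throughout.

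None of the 9 tested members passed edgeR's quasi-likelihood test after Benjamini-Hochberg adjustment over all 16531 genes (lowest adjusted p = 0.683), nor by DESeq2 or limma-voom, and the share called among all genes was likewise 0%. At an unadjusted p under 0.05, edgeR, DESeq2 and limma-voom each counted the same 3 members, IL1A, IL1B and IL1R2, all lower with CXCL10. Among all tested genes 7.14% reached that p, 4.65% lower. The groups did not overlap in CPM for IL1A and IL1R2, both lower, and no member was higher without overlap. Over all genes 6.48% were lower and 5.76% higher without overlap in CPM. In TPM the groups overlapped for both IL1A and IL1R2. The median log2 fold change of the 9 was -0.20, with 5 of 9 below 0, beside a median of 0.02 and 46% below 0 over all genes tested. It was -0.02 without control replicate 4. With single libraries left out, the number of members at an unadjusted p under 0.05 ran from 0 without control replicate 3, when 9.44% of all genes reached it, to 3 without control replicate 1 (7.14%) or control replicate 4 (3.79%). Without control replicate 4 the 3 were IL1A, IL1B and IL1RN, and IL1R2 had an unadjusted p of 0.0541 by edgeR. The number was 1 without CXCL10 replicate 3 (3.71% of all genes) or CXCL10 replicate 4 (3.79%), and 2 without CXCL10 replicate 1 (12.3%). The RNA is from bulk cells, so fewer cells making a transcript and less of it per cell cannot be told apart.

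**Figure D2:**
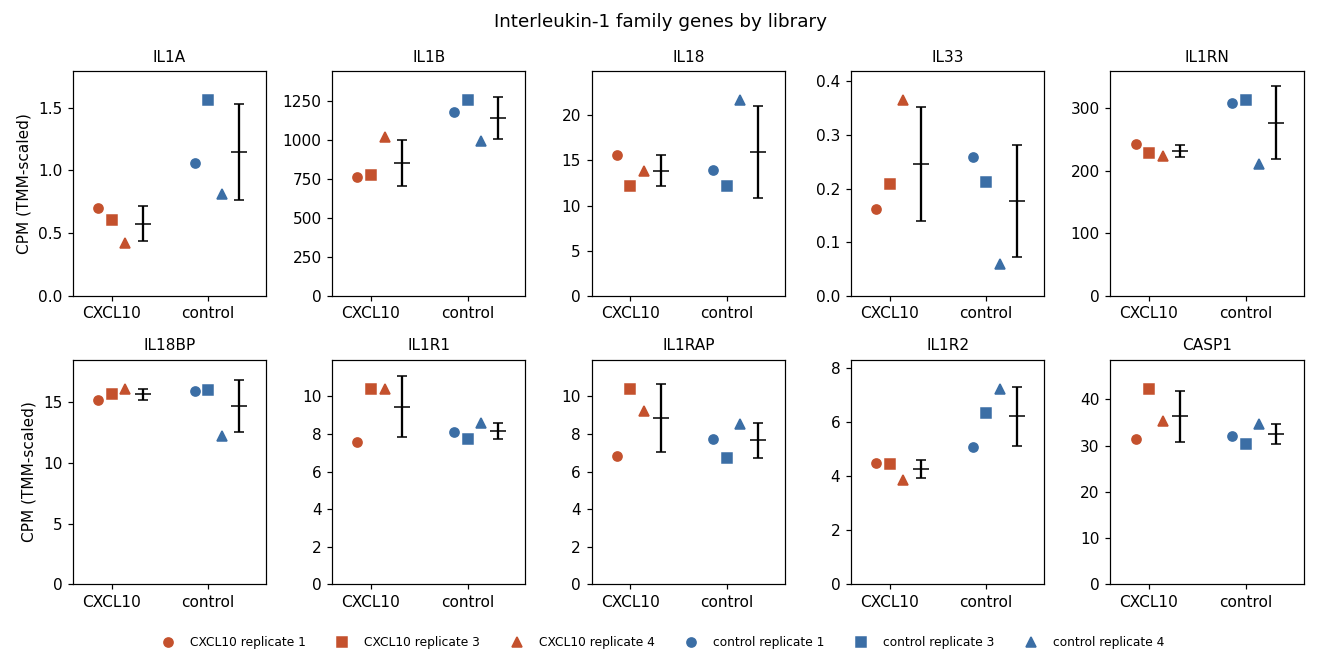
Expression in CPM (TMM-scaled, linear axes from 0) of the 10 family genes, with each point 1 library and the bars the mean ± SD of 3 libraries. All 3 CXCL10 points lie below all 3 control points for IL1A and IL1R2, and the groups overlap for the other 8 genes.

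Among the cytokine genes, IL1B measured 761, 774 and 1021 CPM with CXCL10 in replicates 1, 3 and 4, against 1178, 1257 and 996 CPM in controls 1, 3 and 4, from 28232 to 47521 reads per library. CXCL10 replicate 4 lay above control replicate 4, so the groups overlapped, while the other 2 CXCL10 libraries were below every control in CPM. In TPM its level in CXCL10 replicate 3 (827) was also above that in control replicate 4 (819). Its log2 fold change was -0.42 ± 0.15 (SE), with a 95% interval from -0.74 to -0.11 and an adjusted p of 0.683 by edgeR, a level 25.5% lower at an unadjusted p of 0.0128. With single libraries left out the value ran from -0.58 to -0.34.

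IL1A (interleukin-1 alpha) was near the lower end of detection. It had 26, 26 and 15 reads with CXCL10, against 41, 59 and 27 reads in controls, which correspond to 0.701, 0.603 and 0.421 CPM against 1.06, 1.56 and 0.807 CPM. In CPM every CXCL10 library was below every control, by a narrow margin in reads at control replicate 4 (26 against 27). In TPM CXCL10 replicate 1 (0.974) lay just above control replicate 4 (0.967). The log2 fold change was -0.99 ± 0.41, the largest in size of the 9, with a 95% interval from -1.86 to -0.11 and an adjusted p of 0.683 by edgeR. It was -0.68 without control replicate 3, the library with the most reads of this gene, and -1.18 without control replicate 4. Since both mates of a fragment were counted, these reads stand for fewer molecules.

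IL18, which is kept at a steady level as a precursor in many resting myeloid cells, measured 15.6, 12.2 and 13.8 CPM with CXCL10 and 13.9, 12.2 and 21.7 CPM in controls (chromosome 11, 112143253 to 112164096). Control replicate 4 was the highest library, while the other 5 lay between 12.2 and 15.6 CPM. Its log2 fold change was -0.20 ± 0.21 with an adjusted p of 0.85 by edgeR, and 0.09 without control replicate 4. IL33, which encodes an alarmin of barrier tissues, had 6, 9 and 13 reads with CXCL10 and 10, 8 and 2 reads in controls (chromosome 9, 6215786 to 6257983). It was not tested, and without the filter on low counts its log2 fold change was 0.44 with an adjusted p of 0.922 by edgeR.

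Among the inhibitors of the pathway, IL1RN measured 243, 229 and 224 CPM with CXCL10 and 308, 313 and 210 CPM in controls (chromosome 2, 113107214 to 113134016). Controls 1 and 3 were above all CXCL10 libraries and control replicate 4 was below all of them. The log2 fold change was -0.26 ± 0.15, with a 95% interval from -0.59 to 0.07 and an adjusted p of 0.742 by edgeR. Without control replicate 4 it was -0.42, with an unadjusted p of 0.00356 and an adjusted p of 0.997. The CXCL10 libraries were close to each other, with an SD of 9.63 CPM, against 58.4 CPM in controls (n = 3 each).

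IL18BP (chromosome 11, 71998541 to 72005715) measured 15.2, 15.7 and 16.1 CPM with CXCL10, against 15.9, 16.0 and 12.2 CPM in controls. Here too control replicate 4 was the odd library, this time the lowest. The log2 fold change was 0.09 ± 0.16, with a 95% interval from -0.25 to 0.43 and an adjusted p of 0.922 by edgeR, and it was -0.02 without control replicate 4. Of its exon length 15.6% lies opposite NUMA1, where unstranded counting credits reads to neither gene.

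The decoy receptor gene IL1R2 (chromosome 2, 101991960 to 102028544) measured 4.48, 4.45 and 3.87 CPM with CXCL10, against 5.07, 6.35 and 7.24 CPM in controls, from 138 to 242 reads per library. In CPM every CXCL10 library was below every control, by a narrow margin at control replicate 1. In TPM CXCL10 replicate 3 (4.98) lay just above control replicate 1 (4.95). The log2 fold change was -0.54 ± 0.20, with a 95% interval from -0.97 to -0.11 and an adjusted p of 0.683 by edgeR, a level 31.3% lower at an unadjusted p of 0.0173. With single libraries left out it lay between -0.67 (control replicate 1 left out) and -0.42 (control replicate 4 left out, the library with the highest level).

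The signalling receptor genes had fold changes above 0 that did not pass the test. IL1R1, the receptor chain that binds interleukin-1 (chromosome 2, 102064544 to 102179874), measured 7.58, 10.4 and 10.4 CPM with CXCL10, against 8.13, 7.75 and 8.58 CPM in controls. CXCL10 replicates 3 and 4 were above all controls and CXCL10 replicate 1 was below them. Its log2 fold change was 0.22 ± 0.18 with an adjusted p of 0.807 by edgeR, and a 95% interval from -0.17 to 0.60. IL1RAP, the co-receptor chain shared with the IL-33 and IL-36 receptors (chromosome 3, 190514051 to 190659750), measured 6.85, 10.4 and 9.23 CPM with CXCL10, against 7.71, 6.72 and 8.55 CPM in controls. The libraries fell in nearly the same order as for IL1R1, again with CXCL10 replicates 3 and 4 above all controls, and 4.63% of its exon length is shared with another gene on the same strand. Its log2 fold change was 0.21 ± 0.19, with a 95% interval from -0.21 to 0.62 and an adjusted p of 0.834 by edgeR. Leaving out CXCL10 replicate 3 gave 0.08 for IL1RAP and 0.15 for IL1R1, and leaving out CXCL10 replicate 1 gave 0.36 and 0.35. When the trend of library differences with gene length was removed, the values were 0.08 for IL1RAP and 0.13 for IL1R1.

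CASP1, the gene of the protease that matures interleukin-1 beta and interleukin-18 (chromosome 11, 105025443 to 105035250), measured 31.4, 42.3 and 35.4 CPM with CXCL10, against 32.2, 30.4 and 34.7 CPM in controls. CXCL10 replicate 3 was the highest library, and the others lay between 30.4 and 35.4 CPM. The log2 fold change was 0.16 ± 0.15, with a 95% interval from -0.15 to 0.48 and an adjusted p of 0.823 by edgeR. Leaving out CXCL10 replicate 3 gave 0.05, the lowest such value, and leaving out CXCL10 replicate 1 gave 0.26, the highest. Activity of the enzyme depends on cleavage, which transcript counts do not measure.

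**Figure D3:**
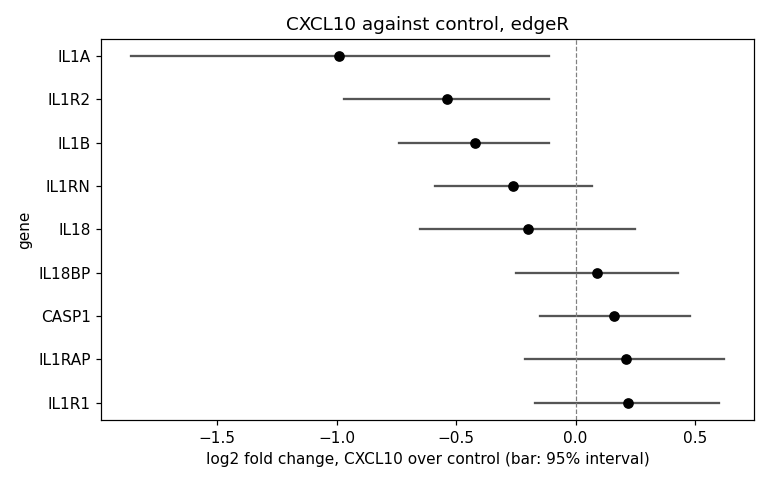
Log2 fold change of CXCL10 over control for the 9 tested members by edgeR, with bars for the 95% interval before any adjustment for multiple testing. The intervals of IL1A, IL1R2 and IL1B lie below 0, and those of the other 6 include 0.

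Ratios of reads per kb between members within a library do not depend on how libraries are scaled to each other, and are given as values with no test. The ratio of the decoy to the signalling receptor, IL1R2 to IL1R1, was 1.42, 1.03 and 0.894 with CXCL10, against 1.5, 1.97 and 2.03 in controls. All CXCL10 libraries were below all controls, with CXCL10 replicate 1 and control replicate 1 close together. How often other gene pairs separate this way was not computed, and an exact two-sided test of 3 against 3 cannot give a p under 0.1. On the log2 scale the ratio was 0.13 ± 0.34 with CXCL10 and 0.86 ± 0.24 in controls (SD, n = 3 each). The difference of CXCL10 minus control was -0.73, and it ran from -0.92 to -0.59 with single libraries left out. The exon lengths differ, at 2957 bases for IL1R2 and 7123 for IL1R1. With the trend of library differences with gene length removed, the fold changes (log2) were -0.50 for IL1R2 and 0.13 for IL1R1, against -0.54 and 0.22.

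The ratio of antagonist to agonist, IL1RN to IL1B, was 0.303, 0.281 and 0.209 with CXCL10, against 0.249, 0.237 and 0.200 in controls. The groups overlapped, and replicate 4 was the lowest of each group. The log2 difference of 0.20 was smaller than the SD of 0.28 among the CXCL10 libraries. It lay between 0.09 (CXCL10 replicate 1 left out) and 0.36 (CXCL10 replicate 4 left out), and was 0.10 without control replicate 4. The IL18BP to IL18 ratio was 0.587, 0.773 and 0.703 with CXCL10, against 0.687, 0.793 and 0.339 in controls. Its log2 difference was 0.26, and -0.11 without control replicate 4, which alone lay below 0.5. For IL1A to IL1B the log2 difference was -0.54, from 0.00134, 0.00114 and 0.000601 with CXCL10 against 0.00131, 0.00181 and 0.00118 in controls, and the groups overlapped. CXCL10 replicate 4 was the lowest library, and without it the difference was -0.19, the smallest in size of a range that reached -0.77.

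**Figure D4:**
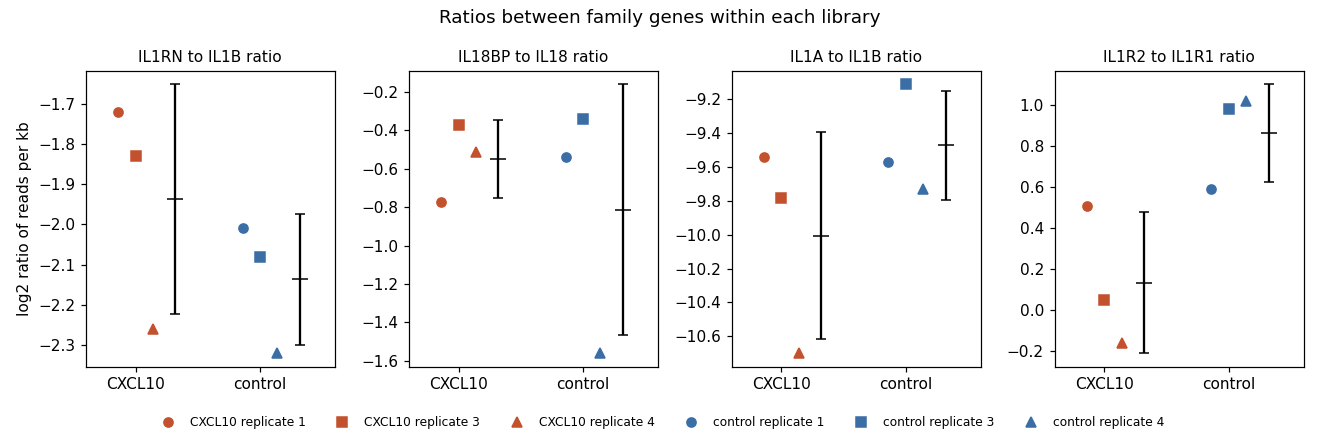
Log2 ratio of reads per kb between a pair of family genes in each library (points), with the mean ± SD of 3 libraries per group. The IL1R2 to IL1R1 ratio is lower in all CXCL10 libraries than in all controls, and the groups overlap in the other 3 panels.

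Other genes of the pathway were read from 4 lists, and none of their tested members passed edgeR's test over all genes. Of 13 further family ligands and receptors 3 were tested, with a median log2 fold change of -0.10. None had an unadjusted p under 0.05, where 7.14% of all genes did. SIGIRR, which encodes an inhibitory receptor of the family, was the most abundant at 18.6 ± 2.93 CPM with CXCL10 and 19.9 ± 4.59 CPM in controls. On the log2 scale its change was -0.10 ± 0.19, and 0.11 without control replicate 4. IL18R1, which encodes the ligand-binding chain of the interleukin-18 receptor, was covered by 26 to 124 reads a library. By edgeR it had an adjusted p of 0.747 at a log2 fold change of 0.62 ± 0.38, which was 0.11 with CXCL10 replicate 3 left out and 0.40 with control replicate 4 left out. IL36B, which encodes an IL-36 cytokine, had 13 to 38 reads and -0.48 ± 0.45 (adjusted p = 0.83 by edgeR), with -0.78 when control replicate 4 was left out. IL18RAP, the other chain of the interleukin-18 receptor, had at most 8 reads per library, and IL1RL1, which encodes the IL-33 receptor, at most 4.

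Of 22 genes for processing and release 20 were tested, with a median of 0.00, and 1 was higher and 1 lower at an unadjusted p under 0.05, where 2.5% and 4.65% of all genes were. The lower gene was PYCARD, which encodes the inflammasome adaptor ASC, at 33.2, 24.8 and 27.4 CPM with CXCL10 and 35.2, 31.4 and 80.0 CPM in controls. Its log2 fold change was -0.78 ± 0.28 (adjusted p = 0.683 by edgeR) and -0.22 without control replicate 4. It was called lower when no filter on low counts was used (adjusted p = 0.00297 by edgeR), and 59.7% of its exon length lies opposite PYCARD-AS1, which the counting could not separate. The higher gene was NLRP1, which encodes an inflammasome sensor, at 1.83 ± 0.262 CPM with CXCL10 and 1.10 ± 0.156 CPM in controls. EdgeR gave it 0.72 ± 0.29 on the log2 scale, at an adjusted p of 0.683. The most abundant per length were HAX1, with a log2 fold change of -0.12 ± 0.14, and NINJ1, which encodes a protein of plasma membrane rupture, with -0.21 ± 0.15.

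All 24 genes of receptor signalling were tested, with a median of 0.08 and 0 at an unadjusted p under 0.05, where 7.14% of all genes were. IRAK1 and TAB2, which encode a kinase and an adaptor downstream of the receptor, were the most abundant per length, with log2 fold changes of 0.05 ± 0.14 and 0.09 ± 0.15. Both changed sign with a single library left out, IRAK1 over a range of -0.05 to 0.18 and TAB2 over -0.07 to 0.22. The lowest p-values belonged to ECSIT (-0.39 ± 0.20) and UBE2V1 (0.90 ± 0.47), both with an adjusted p of 0.702 by edgeR. Without control replicate 4 these were -0.18 and 0.54. UBE2V1 shares 42.9% of its exon length with a readthrough gene, so its count is incomplete.

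Genes known to respond to interleukin-1 numbered 22, of which 18 were tested. Their median was -0.09, with 11 below 0 and 1 at an unadjusted p under 0.05 by edgeR. Over all genes tested 46% were below 0 and 7.14% reached that p, 4.65% lower. The median of the list was 0.03 without control replicate 1 and -0.20 without control replicate 4. The gene at that p was CCL20, which encodes a chemokine for CCR6-bearing cells. Its log2 fold change by edgeR was -0.52 ± 0.20, at an adjusted p of 0.683. It was -0.28 without control replicate 3 and -0.77 without control replicate 4, its lowest library. The neutrophil chemokine genes CXCL8 and CXCL1 had -0.23 ± 0.17 and -0.33 ± 0.19, and NFKBIA, which encodes an inhibitor of NF-kB, had 0.10 ± 0.20. With single libraries left out NFKBIA ran from -0.08 to 0.31 and CXCL8 from -0.39 to -0.05. IL6 had 0 reads in all 6 libraries.

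**Figure D5:**
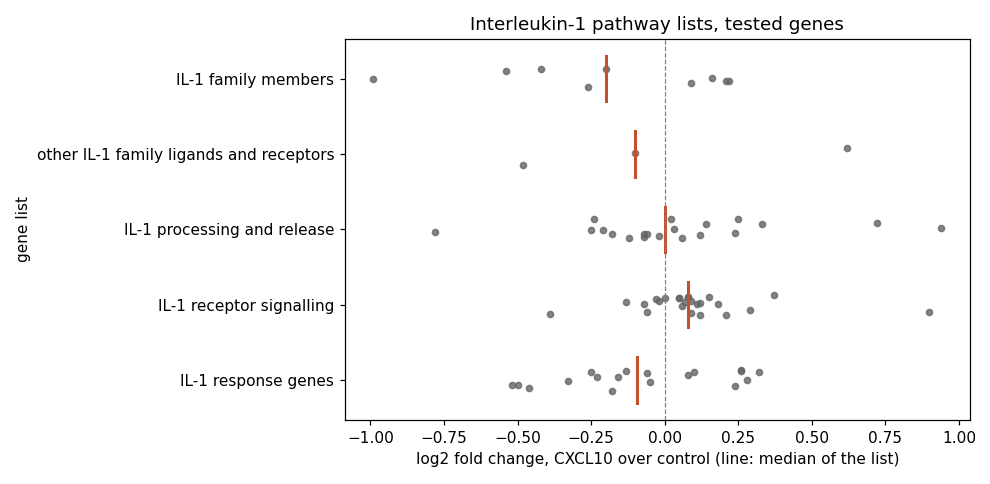
Log2 fold change of CXCL10 over control for each tested gene (points) of the family and of 4 further lists, with a line at the median of each list. Medians lie between -0.20 and 0.08, beside 0.02 for all genes tested.

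Genes with the pattern most like that of IL1B over the 6 libraries were taken among 8754 genes of at least 10 CPM, as those with the smallest root mean square difference in centred log2 CPM. They were STEAP1, NRSN1, COL22A1, SCG5 and ADAMTS1, with differences of 0.126 to 0.142. Their own log2 fold changes lay between -0.30 and -0.24, all smaller in size than that of IL1B. None passed edgeR's test (lowest adjusted p = 0.683). The choice was by likeness to IL1B in these same libraries. The sign and size of these changes are therefore not independent of it. IL1RN, IL18, IL18BP and CASP1 were compared too and were not among the 5, while IL1A, IL1R1, IL1R2, IL1RAP and IL33 averaged under 10 CPM and could not be.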

How the data were processed

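Per the labels, polyadenylated RNA of 3 CXCL10 and 3 control samples of THP-1 cells was made into stranded libraries. Per the submitters' processing notes, Trim Galore, STAR, Subread and featureCounts were used with hg38. The deposited values are unscaled read counts per gene name. The authors made them with featureCounts 2.0.6 and the exons of GENCODE 30, per the file headers. Both mates of a pair were counted, no strand was set, and reads over 2 genes or mapped to several places were left out.

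Groups came from the labels. The whole table was tested with edgeR 4.0.16 in R 4.3.3 (filterByExpr, TMM factors, quasi-likelihood fit on the group, Benjamini-Hochberg adjustment over 16531 genes, threshold 0.05). CPM use TMM-scaled totals and TPM the exon length in the files. DESeq2 1.42.0 and limma-voom (limma 3.58.1) were alternatives. The members and lists were chosen with earlier results of these data known. Named are all members, and from each pathway list the 2 genes of highest per-length level and the 2 of lowest p. Genes named as near or at 0 reads were added after their values were seen. Promoter stretches are RefSeq's, and 8 of 10 members were matched.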

Additional observations from a re-analysis of the deposited data

How the results depend on the processing

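Among 16 alternatives, edgeR without a filter on low counts called 137 genes (45 higher, 92 lower), none of them a member, and the other 15 called 0 genes. Without control replicate 4 the log2 fold changes of IL18 (0.09) and IL18BP (-0.02) changed sign, and the cause was not tested. With each library left out in turn they ran from -0.34 to 0.09 for IL18 and from -0.02 to 0.17 for IL18BP. The other 7 tested members kept their sign in every alternative that tested them, and IL1A was not tested when at least 1 CPM in 3 libraries was required. Library size alone moved the median of all genes to 0.10, against 0.02. With the replicate number as a block 0 genes and 0 members were called (1323 genes at an unadjusted p under 0.05). Same-numbered libraries did not deviate together (correlations of 0.03, 0.02 and -0.05), so the numbers were not treated as pairs. Depth limits IL33 and IL1A, at 2 to 59 reads per library.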
